A study of Homo sapiens with 12 samples.

Results

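FOS, FOSB, FOSL1, EGR1, DUSP5 and PPP1R15A were followed in RNA from Hep3B xenografts. The genes were picked by symbol: 5 core genes (FOS, FOSB, EGR1, DUSP5 and PPP1R15A) and any of FOSL1, JUN, JUNB, IER3 and ATF3 that the deposited mRNA table lists. Of these 10 symbols, 6 were found among the 4988 genes of the table, and JUN, JUNB, IER3 and ATF3 were not analysed here. The choice was made with earlier results of these data known. Hep3B is a human hepatocellular carcinoma line, and a xenograft is a tumour of such cells grown in a host animal. The series title speaks of Hep3B cells, while every sample label gives xenograft as its source. One group received bufotalin, a toad venom bufadienolide of the cardiac glycoside class, and the other group was labelled control. Each group had 3 total RNA libraries. Dose, length of treatment, host strain and what the controls were given are not given in the sources used here. No label says that the libraries came from separate animals, so p-values measure the spread between these libraries only, which may be technical.

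Immediate early genes are transcribed within minutes of a stimulus, without new protein synthesis. In the textbook scheme the ERK kinases activate ELK1 and other partners of the serum response factor SRF, calcium and cAMP signals act through CREB, and the mRNAs that follow are short-lived. FOS family proteins pair with JUN family proteins into the transcription factor AP-1, and DUSP5 is a phosphatase that acts back on nuclear ERK. PPP1R15A, also called GADD34, belongs to a second stress pathway: it brings protein phosphatase 1 to the translation factor eIF2alpha and removes the phosphate that the integrated stress response puts there. Cardiac glycosides bind and inhibit the sodium pump.

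The mRNA table holds FPKM, a fragment number scaled by gene length and library size, so levels of different genes can be set side by side. It lists genes that the authors had selected as different on these same samples, and its depth is unknown. Summed FPKM ran from 114207 to 121337 in the bufotalin libraries and from 102677 to 105803 in the control libraries. limma was run on log2(FPKM + 1) for the 4273 genes that averaged 0.5 FPKM or more over the libraries, with Benjamini-Hochberg adjustment over all of them, and a gene was called at an adjusted p below 0.05. Of the tested genes 44.3% were called higher and 48.8% were called lower in bufotalin libraries, and 92.5% had no overlap between groups. A call in this table is therefore the usual case. The median log2 fold change of all genes tested was 0.14, and scaling the libraries to equal medians moved it to 0.31, so fold changes have to be read against that shift. All 6 listed genes passed the FPKM minimum in the mean of each group, and all 6 were called: 4 higher (FOSB, FOSL1, DUSP5 and PPP1R15A) and 2 lower (FOS and EGR1). Log2 fold changes below are bufotalin over control on log2(FPKM + 1), which understates changes of genes near 0, and errors after ± are SD over 3 libraries.

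Of the 6 genes, 4 matched a RefSeq promoter by symbol, leaving DUSP5 and FOSL1. The 4 are shown because FOS and EGR1 fell under the same treatment in which FOSB and PPP1R15A rose. Each line gives the 250 bases just before the RefSeq start of transcription on GRCh38.p14, plus strand, at chr14:75278578-75278827, chr19:45467746-45467995, chr5:138465229-138465478 and chr19:48872171-48872420. Capitals mark the letters TGACG (the core of the cAMP response element, CRE) on either strand, the GC box GGGCGG, the TATA box TATAAA, the full CRE TGACGTCA and the CArG box, to which SRF binds. The full CRE contains its own core, so those letters overlap.
FOS: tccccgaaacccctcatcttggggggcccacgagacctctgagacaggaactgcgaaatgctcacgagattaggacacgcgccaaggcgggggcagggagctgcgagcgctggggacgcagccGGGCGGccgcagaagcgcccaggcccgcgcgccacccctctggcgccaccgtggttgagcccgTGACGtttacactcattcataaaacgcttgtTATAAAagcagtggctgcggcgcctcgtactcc
FOSB: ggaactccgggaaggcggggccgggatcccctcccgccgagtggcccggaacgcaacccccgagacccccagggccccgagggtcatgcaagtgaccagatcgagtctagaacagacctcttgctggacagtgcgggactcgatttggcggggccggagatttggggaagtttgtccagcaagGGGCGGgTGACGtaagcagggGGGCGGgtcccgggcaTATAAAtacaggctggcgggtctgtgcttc
EGR1: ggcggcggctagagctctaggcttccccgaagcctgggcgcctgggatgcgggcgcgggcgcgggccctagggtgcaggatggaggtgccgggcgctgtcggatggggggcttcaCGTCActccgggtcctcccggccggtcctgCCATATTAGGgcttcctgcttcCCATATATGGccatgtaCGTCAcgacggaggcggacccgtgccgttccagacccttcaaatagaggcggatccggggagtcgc
PPP1R15A: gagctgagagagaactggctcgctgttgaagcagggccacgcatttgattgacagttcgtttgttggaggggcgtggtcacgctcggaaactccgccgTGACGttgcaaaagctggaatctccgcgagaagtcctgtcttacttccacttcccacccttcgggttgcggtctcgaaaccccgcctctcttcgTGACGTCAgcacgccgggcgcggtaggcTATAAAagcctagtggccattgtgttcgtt

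All 4 windows held the CRE core close to the start, although 21.2% of all 35116 RefSeq promoters of this length hold it somewhere. It lay 64 to 60 bases before the start in FOS, 60 to 56 in FOSB and, on the other strand, 66 to 62 in EGR1. PPP1R15A held the full CRE 58 to 51 bases before the start, a word found in 1.65% of these promoters. The TATA box stood 33 to 28 bases before the start in FOS and 30 to 25 bases before it in FOSB and PPP1R15A, against 10.7% of promoters with it anywhere in the window. EGR1 alone among the 4 held CArG boxes in this window, 105 to 96 and 83 to 74 bases before its start, and 1.16% of promoters hold at least 1. GC boxes, present in 42.6% of promoters, were found in FOS and FOSB. The AP-1 site TGACTCA (or TGAGTCA on the other strand, 4.20% of promoters), the CCAAT box (CCAAT, 32.0%), the ETS word CCGGAAG (8.52%) and the composite ATF4 and CEBP word TGATGNAAT (0.888%) were in none of the 4 windows, searched on both strands. Shorter ETS words such as GGAA were not searched for, so this does not show that ETS sites are absent. FOSL2 and JUND, family members described further on, were searched too: FOSL2 held the CRE core 66 to 62 and, on the other strand, 201 to 197 bases before its start. JUND held the full CRE 200 to 193 bases and, on the other strand, the core 86 to 82 bases before its start. FOSL2 also held 1 GC box, and JUND 5 GC boxes and a CCAAT box 74 to 70 bases before its start. These are matches of letters, and windows further upstream were not searched.

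PPP1R15A, on chromosome 19 from 48872421 to 48876058, had the largest change of the 6 genes on log2(FPKM + 1). With a pseudocount of 0.01 its log2 fold change was 2.32, and that of EGR1 was larger in size, at -2.85. PPP1R15A measured 43.4, 42.5 and 45.8 FPKM in bufotalin replicates 1, 2 and 3, against 8.76, 10.8 and 7.18 FPKM in control replicates 1, 2 and 3. Every bufotalin library was well above every control library, and the bufotalin libraries lay close together. The means were 43.9 ± 1.67 FPKM with bufotalin and 8.92 ± 1.83 FPKM in controls, a 4.92-fold ratio. The log2 fold change was 2.19 (SE 0.14, limma adjusted p = 2.15e-06), the 17th highest of 4273 genes tested.

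EGR1, a zinc finger transcription factor that growth factors switch on through SRF sites, moved the other way. On chromosome 5 from 138465479 to 138469303, it measured 0.395, 0.799 and 0.948 FPKM in the bufotalin libraries and 4.34, 5.56 and 4.87 FPKM in the control libraries. The groups were far apart, and bufotalin replicate 1 was the lowest of all. Means of 0.714 ± 0.286 FPKM with bufotalin and 4.92 ± 0.611 FPKM in controls gave a ratio of 0.145. EGR1 fell by 1.80 on the log2 scale (SE 0.15, limma adjusted p = 5.83e-06), which placed it 129th from the lowest of the 4273 genes. Because its level with bufotalin was near 0, the size of the fall depended on the scale: -2.69 and -2.85 with pseudocounts of 0.1 and 0.01, and -1.15 after quantile normalization, called each time.

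FOS, the founding AP-1 subunit on chromosome 14 from 75278826 to 75282230, fell less than EGR1 did. Bufotalin libraries held 26.4, 25.5 and 25.8 FPKM, and control libraries 48.7, 47.1 and 46.0 FPKM. Replicates of FOS were unusually tight, with a coefficient of variation of 1.69% with bufotalin and 2.95% in controls, where the medians over tested genes were 12.2% and 11.0%. Its mean was 25.9 ± 0.437 FPKM with bufotalin and 47.3 ± 1.40 FPKM in controls, a ratio of 0.548. FOS fell by 0.84 on the log2 scale (SE 0.10, limma adjusted p = 3.94e-05), and was 1547th from the lowest of the 4273 genes, so a fall of this size was common in the table.

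FOSB, the closest relative of FOS, on chromosome 19 from 45467995 to 45475179, rose while FOS fell. It was at 3.05, 2.66 and 2.77 FPKM in the bufotalin libraries and at 0.773, 0.778 and 0.956 FPKM in the control libraries, without overlap. The means, 2.82 ± 0.202 FPKM with bufotalin and 0.836 ± 0.105 FPKM in controls, stood in a ratio of 3.38. FOSB had a log2 fold change of 1.06 (SE 0.11, limma adjusted p = 1.56e-05). At these low levels the pseudocount of 1 understates the change: FOSB had 1.65 and 1.75 with pseudocounts of 0.1 and 0.01, and 1.65 after quantile normalization.

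FOSL1, or FRA1, an AP-1 subunit that accumulates when ERK activity lasts, rose as well. On chromosome 11 from 65890077 to 65900573, it measured 7.51, 7.10 and 9.34 FPKM with bufotalin and 3.80, 4.12 and 3.77 FPKM in controls. Bufotalin replicate 3 was the highest, and the lowest bufotalin library exceeded the highest control library. The log2 fold change was 0.87 (SE 0.12, limma adjusted p = 0.000128), and 1.31 after quantile normalization. Mean FPKM was 7.98 ± 1.19 with bufotalin and 3.90 ± 0.193 in controls.

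DUSP5, on chromosome 10 from 110497907 to 110511533, measured 62.6, 52.0 and 52.0 FPKM in the bufotalin libraries and 25.1, 24.2 and 27.9 FPKM in the control libraries. Bufotalin replicate 1 stood above the other 2, and the groups did not overlap. The mean was 55.5 ± 6.11 FPKM with bufotalin and 25.7 ± 1.95 FPKM in controls, 2.16-fold. DUSP5 rose with a log2 fold change of 1.08 (SE 0.12, limma adjusted p = 2.83e-05), 263rd from the highest.

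**Figure D1:**
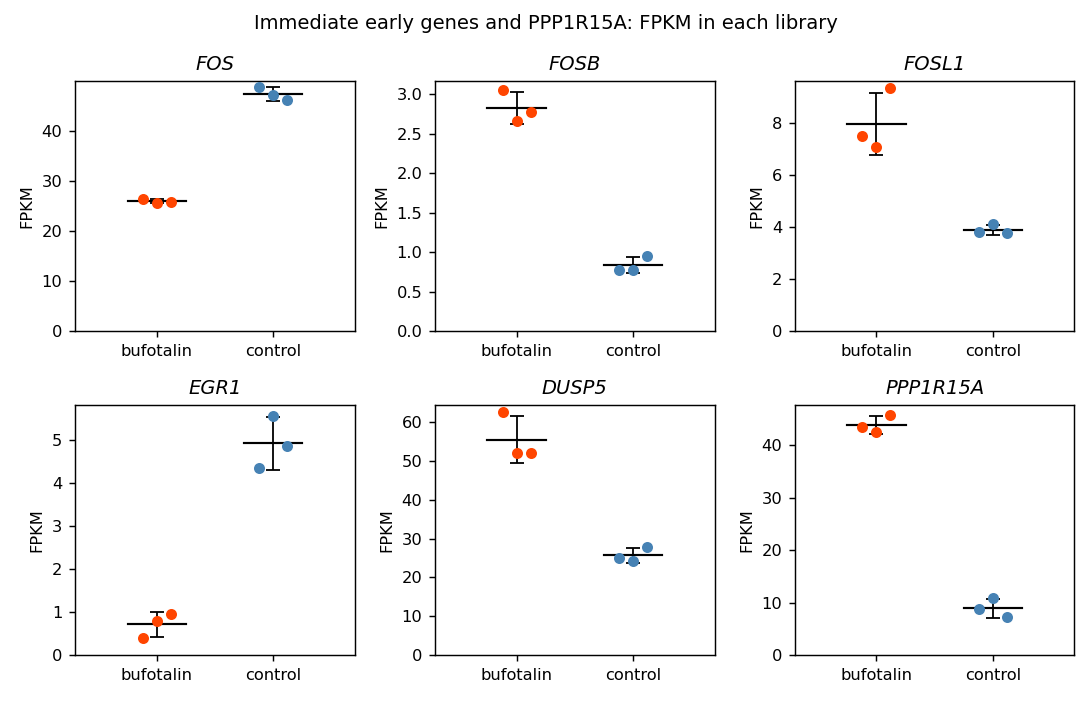
FPKM of FOS, FOSB, FOSL1, EGR1, DUSP5 and PPP1R15A (vertical axes, each from 0) in 3 bufotalin libraries (left) and 3 control libraries (right). Points are libraries, horizontal lines means and bars SD. In each panel the groups do not overlap, with bufotalin below control for FOS and EGR1 and above it for the other 4 genes.

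The order of the 6 genes by FPKM differed between groups. With bufotalin it ran DUSP5, PPP1R15A, FOS, FOSL1, FOSB and EGR1, and in controls FOS, DUSP5, PPP1R15A, EGR1, FOSL1 and FOSB. No neighbours in either order overlapped between libraries. The closest pairs were DUSP5 over PPP1R15A with bufotalin (52.0 to 62.6 against 42.5 to 45.8 FPKM) and EGR1 over FOSL1 in controls (4.34 to 5.56 against 3.77 to 4.12 FPKM), both with means in a ratio of 1.26. FOS was thus the highest of the genes in controls and the third with bufotalin, and EGR1 was the lowest with bufotalin.

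Ratios of 2 genes within a library do not depend on how libraries are scaled to each other. FOSB over FOS was 0.116, 0.104 and 0.107 in the bufotalin libraries and 0.0158, 0.0165 and 0.0208 in the control libraries. The log2 ratio was thus higher by 2.63 with bufotalin. PPP1R15A over FOS was 1.65, 1.67 and 1.78 with bufotalin and 0.180, 0.230 and 0.156 in controls, so that PPP1R15A mRNA was above FOS mRNA in every bufotalin library and below it in every control library (log2 difference 3.19). EGR1 over FOS was 0.0150, 0.0313 and 0.0368 with bufotalin and 0.0890, 0.118 and 0.106 in controls: EGR1 fell further than FOS did, by 2.00 on the log2 scale of FPKM without a pseudocount. DUSP5 over EGR1, a feedback gene against a transcription factor gene that ERK also controls, was 158, 65.2 and 54.8 with bufotalin and 5.78, 4.36 and 5.73 in controls (log2 difference 3.98). None of the 4 ratios overlapped between groups. For FOSB over FOS, PPP1R15A over FOS and DUSP5 over EGR1 this had to be so, since the 2 genes moved in opposite directions without overlap. Those ratios and their p-values therefore add no separate support to the single-gene results. Each had p = 0.1 in a two-sided exact permutation test over libraries, also after Benjamini-Hochberg adjustment over the 4, and 0.1 is the smallest p that 3 against 3 libraries allow.

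FOSL2, the remaining FOS family gene of the table, measured 37.0, 35.2 and 40.8 FPKM with bufotalin and 25.8, 26.4 and 29.2 FPKM in controls (log2 fold change 0.46, SE 0.11, limma adjusted p = 0.00321, and 0.28 after quantile normalization, still called). FOSL2 was named after its values were seen. Summed over FOS, FOSB, FOSL1 and FOSL2, the family held 74.0, 70.4 and 78.7 FPKM in the bufotalin libraries and 79.1, 78.5 and 79.9 FPKM in the control libraries, so the totals overlapped while the make-up differed. FOS held 34.9 ± 1.87% of the sum with bufotalin and 59.7 ± 2.07% in controls. FOSL2 held 50.6 ± 1.10% with bufotalin and 34.3 ± 2.05% in controls, and was the largest part in every bufotalin library, where FOS was the largest in every control library. FOSL1 held 10.7 ± 1.01% with bufotalin and 4.92 ± 0.284% in controls, and FOSB 3.80 ± 0.304% with bufotalin and 1.06 ± 0.123% in controls. FOS and FOSB carry strong activation domains that FOSL1 and FOSL2 lack, as background.

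**Figure D2:**
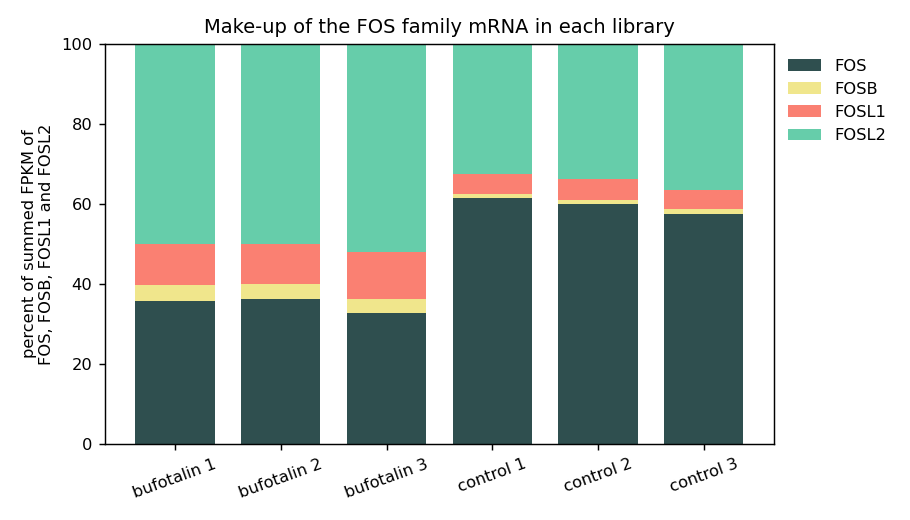
Percent of the summed FPKM of FOS, FOSB, FOSL1 and FOSL2 (vertical axis) held by each gene in the 3 bufotalin libraries (left) and the 3 control libraries (right). FOS takes 32.7% to 36.2% of each bufotalin bar and 57.5% to 61.6% of each control bar, and FOSL2 takes most of the difference.

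Of 15 symbols of other AP-1 subunits and partners, 7 were in the table and 6 were tested. All 6 rose, with a median log2 fold change of 0.62 beside 0.14 for all genes tested. Counts of this and the following lists stand beside 44.3% of all tested genes called higher and 48.8% called lower. They say nothing of symbols absent from the table. MAFF, a small MAF protein that pairs with bZIP factors, reached 24.6, 21.2 and 21.2 FPKM with bufotalin, against 4.83, 4.49 and 4.77 FPKM in controls (2.03, SE 0.11, limma adjusted p = 1.17e-06). MAFG (1.62), MAFK (0.72, and 0.42 after quantile normalization) and BACH1 (0.48), a repressor that pairs with small MAF proteins, rose too. JUND, the JUN family gene of the table, named after its values were seen, measured 64.5, 70.3 and 56.8 FPKM with bufotalin and 50.8, 44.2 and 37.7 FPKM in controls. It had a log2 fold change of 0.53 (SE 0.14, limma adjusted p = 0.0050), and was not called after quantile normalization (0.26). BATF2 was listed at 0 in all controls and at 0.0351, 0.0422 and 0.0348 FPKM with bufotalin, and was not tested.

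Of 25 symbols of other immediate early transcription factors, 10 were listed and tested. Of these 10 genes 8 rose and 2 fell (median 0.70), beside 44.3% of all tested genes called higher. NR4A1, an orphan nuclear receptor, fell together with EGR1 and FOS, at 30.6, 26.4 and 25.5 FPKM with bufotalin and 43.3, 43.6 and 50.0 FPKM in controls (-0.71, SE 0.12, limma adjusted p = 0.000314). Its relative NR4A3 rose, at 17.3, 17.5 and 20.4 FPKM with bufotalin and 9.64, 9.47 and 9.30 FPKM in controls (0.89, SE 0.11, limma adjusted p = 5.46e-05). FOS and FOSB also went opposite ways, while FOSB, FOSL1 and FOSL2 rose together, as did MAFF, MAFG and MAFK. With 44.3% of tested genes called higher and 48.8% called lower, opposite calls of 2 genes are common in this table. IER5 (0.83) and the differentiation inhibitor ID2 (0.81) rose, and ID1 fell (-0.999). Of 29 symbols of immediate early genes that do not encode transcription factors, 15 were listed, and 12 of 14 tested genes rose (median 0.71). Among them were CCN2 (1.51) and CCN1 (0.95), which encode matricellular proteins, and the kinase gene PLK2 (0.95). PHLDA1 (-1.13) and BTG2 (-0.91), an antiproliferative gene, fell. ID1 and BTG2 were named after their values were seen. PHLDA1 had -0.45 after quantile normalization, still called.

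Of 32 symbols of the ERK cascade and its receptors, 9 were listed and tested. They went both ways, with 4 of 9 genes higher, 4 lower and EGFR not called. MAPK3, which encodes ERK1, fell to 7.99, 6.02 and 7.79 FPKM with bufotalin, against 25.8, 19.7 and 18.9 FPKM in controls (-1.44, SE 0.15, limma adjusted p = 2.10e-05). The kinase kinases MAP2K6, of the p38 branch (-1.41), and MAP2K5, of the ERK5 branch (-1.13), fell, and MAP2K3, also of the p38 branch, rose (0.93). MAP2K6 had -3.92 with a pseudocount of 0.01 and -0.86 after quantile normalization. EGFR, with 43.9, 44.8 and 56.8 FPKM with bufotalin and 52.9, 27.4 and 31.8 FPKM in controls, was not called (0.41) but had 0.69 and was called without control replicate 1, and had 0.60 and was called after scaling to equal medians. With quantile normalization 3 genes of this list were higher, 3 lower and 3 not called.

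Of 24 other symbols of ERK feedback inhibitors, 6 were listed and tested, all of them phosphatase genes. Alongside DUSP5 5 of 6 rose (median 0.73), beside 44.3% of all tested genes called higher. DUSP4, which acts on nuclear ERK as DUSP5 does, rose most, to 60.1, 55.4 and 58.9 FPKM with bufotalin against 14.1, 14.2 and 15.3 FPKM in controls (1.93, SE 0.10, limma adjusted p = 1.17e-06). DUSP1, an immediate early phosphatase of p38, JNK and ERK, measured 196, 167 and 153 FPKM with bufotalin and 73.3, 81.0 and 98.1 FPKM in controls (1.03, SE 0.15, limma adjusted p = 0.000123). DUSP8 rose (0.87, and 1.48 after quantile normalization), and DUSP9, a cytoplasmic ERK phosphatase, fell (-1.41). Of 27 symbols of SRF and CREB regulators, 9 were listed and tested, and 7 of 9 rose (median 0.55). SRF itself measured 20.2, 17.4 and 18.7 FPKM with bufotalin and 9.51, 9.20 and 8.97 FPKM in controls (0.95, SE 0.11, limma adjusted p = 3.06e-05). Its ternary complex partners ELK1 and ELK3 went opposite ways. ELK1, named after its values were seen, measured 37.0, 32.9 and 37.3 FPKM with bufotalin and 21.3, 20.5 and 21.4 FPKM in controls (0.73, limma adjusted p = 0.00013). ELK3 was low, at 0.0473 to 0.159 FPKM with bufotalin and 0.978 to 1.17 FPKM in controls. It fell by -0.90 on the log2 scale, with -0.47 after quantile normalization and -3.42 with a pseudocount of 0.01. NFATC2, a calcium-regulated transcription factor, rose (1.77, and 3.21 with a pseudocount of 0.01), and PPP3CB, a calcineurin catalytic subunit, fell (-1.01).

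**Figure D3:**
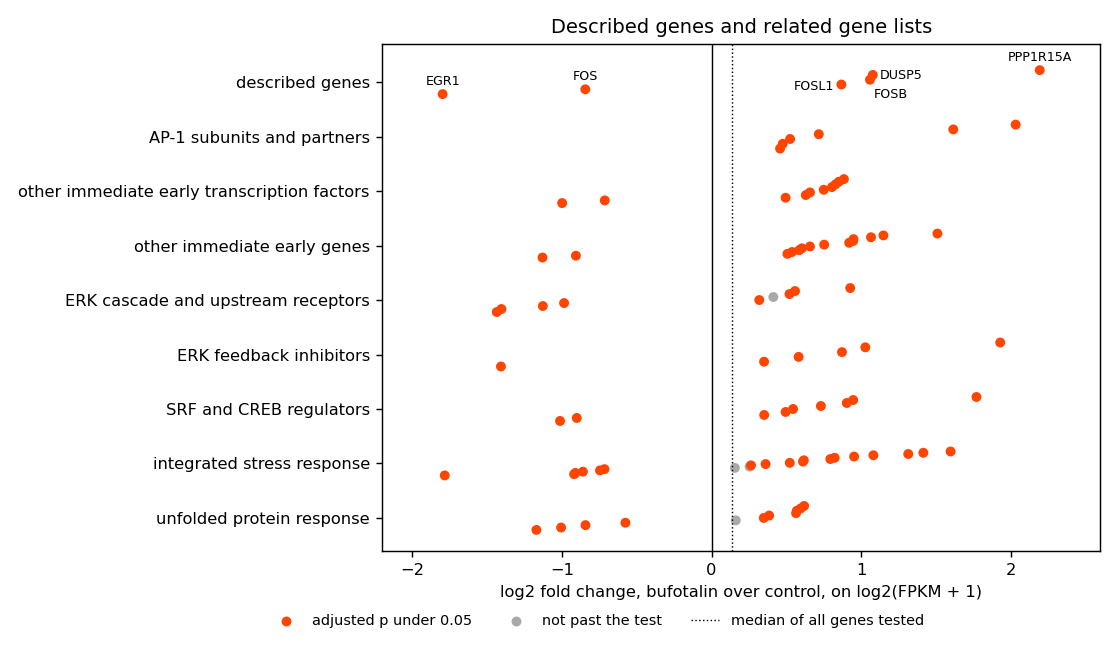
Log2 fold change of bufotalin over control on log2(FPKM + 1) (horizontal axis) for the 6 described genes (top row) and the tested genes of each related list (rows). Each point is a gene, grey where it did not pass limma's adjusted p, and the dotted line is the median of all 4273 genes tested, 0.14. PPP1R15A lies furthest right and EGR1 furthest left in the figure.

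In the integrated stress response, the pathway that PPP1R15A switches off, 20 of 46 other symbols were listed and tested. Of these 20 genes 12 rose, 6 fell and 2 were not called (median 0.44), beside 44.3% of all tested genes called higher. PPP1R15B, the constitutive counterpart of PPP1R15A, named after its values were seen, measured 130, 151 and 160 FPKM with bufotalin and 83.4, 81.7 and 87.3 FPKM in controls (0.79, SE 0.12, limma adjusted p = 0.000161). Its mRNA was above that of PPP1R15A in all 6 libraries. ATF5, a transcription factor of the pathway, measured 12.3, 12.8 and 12.2 FPKM with bufotalin and 3.84, 4.64 and 3.64 FPKM in controls (1.42, SE 0.11, limma adjusted p = 5.15e-06), and NUPR1 (1.60) and CREBRF (1.32) rose as well. OMA1, the mitochondrial protease that relays mitochondrial stress to the pathway, fell to 3.59, 3.74 and 3.17 FPKM with bufotalin against 15.0, 13.9 and 14.6 FPKM in controls (-1.78, SE 0.11, limma adjusted p = 1.61e-06). The eIF2alpha kinases EIF2AK1 (-0.92) and EIF2AK4 (-0.72) fell. The remaining genes of the list that fell were EIF2B3 (-0.91), AARS (-0.86) and DDIT4 (-0.75). The remaining genes that rose were GDF15 (1.08), SLC3A2 (0.95), STC2 (0.82), VLDLR (0.62), SLC7A11 (0.61), EIF2B2 (0.52), EIF2B5 (0.36) and EIF2B1 (0.26). EIF2S1, which encodes eIF2alpha, was not called (0.16), and the sign turned after quantile normalization (-0.15) and without bufotalin replicate 2 (-0.01). EIF2AK1, EIF2AK4, EIF2S1 and the remaining genes that fell or rose were named after their values were seen. ATF4, DDIT3 and TRIB3 were not analysed here.

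By the likeness of the centred log2(FPKM + 1) profile over 6 libraries, measured as root mean square difference, EFCAB14 (0.02), BRD3 (0.03) and C13orf46 (0.04) were nearest to FOS. Near to FOSB were EIF1 (0.04), a translation start site factor, and VPS37B (0.05). MOV10 (0.09), DET1 (0.11) and ME1 (0.11) were nearest to EGR1, and SELENOI (0.06), IRAK1 (0.07) and KIFC3 (0.07) to DUSP5. The neighbours of PPP1R15A were CSF2RA (0.11), a cytokine receptor subunit at 81.6, 67.5 and 83.1 FPKM with bufotalin and 13.9, 17.0 and 12.6 FPKM in controls, GNG11 (0.17) and VSIR (0.19). With 3 libraries a group, such likeness mostly follows the size and direction of the difference between groups on log2(FPKM + 1). For low genes this is not the ratio of mean FPKM. That ratio, bufotalin over control, was 3.38 for FOSB, but 2.10 for EIF1 and 2.21 for VPS37B. It was 0.145 for EGR1, but 0.282 for MOV10 and 0.0808 for DET1. The call of C13orf46 was lost after quantile normalization (-0.09).

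Marker genes of other cell types and mitochondrially encoded genes were read from the same libraries. In bulk RNA, fewer cells of a type and less RNA per cell cannot be told apart. Of 18 fibroblast markers 8 were listed, and their summed FPKM was 23.9 to 29.8 with bufotalin and 84.2 to 88.7 in controls, with 7 of 7 tested lower (5 of 7 after quantile normalization). COL6A1 measured 6.46, 5.46 and 7.35 FPKM with bufotalin and 30.7, 28.0 and 28.0 FPKM in controls. For 2 of 12 endothelial markers, EGFL7, which was lower, and CDH5, which was higher, the sum was 8.46 to 10.6 FPKM with bufotalin and 32.2 to 33.7 FPKM in controls. The 3 listed of 14 leukocyte markers summed to 4.61 to 6.82 FPKM with bufotalin and 3.18 to 3.53 FPKM in controls. CD14, under the minimum for testing, was 0.522 to 0.728 FPKM with bufotalin and 0 to 0.0758 FPKM in controls, CSF1R was called higher (0.46, and 1.02 after quantile normalization), and ITGAM, also not tested, was listed at 0 in all bufotalin libraries and at 0.0254 to 0.0703 FPKM in controls. The muscle marker DES was 0.0255 to 0.0881 FPKM with bufotalin and 1.59 to 2.58 FPKM in controls, and the erythroid HBB, which was not called, 0.367 to 0.552 FPKM with bufotalin and 0.470 to 13.4 FPKM in controls, with 13.4 in control replicate 3 alone. The 4 listed of 13 mitochondrially encoded genes summed to 1246 to 2269 FPKM with bufotalin and 2498 to 5351 FPKM in controls. Of these 4, MT-CO1 was called lower (-1.90), and MT-ND6 (0.31) was not called. MT-ND6 was called in 2 of 14 other settings, scaling to equal medians and control replicate 2 left out. MT-CO2 (-1.26, limma adjusted p = 0.0658) and MT-CO3 (-1.20, limma adjusted p = 0.0535) overlapped between the groups and were not called. Of 14 other settings MT-CO2 was called lower in 5 and MT-CO3 in 6. Both were called after quantile normalization, with no FPKM minimum, in limma without trend and robust, and without bufotalin or control replicate 3. The part of these marker and mitochondrial genes in the values of FOS, EGR1 and the other genes was not tested, nor was that of host reads. Of the hepatocyte and hepatoma markers, KRT8 was at 455 to 647 FPKM with bufotalin and 269 to 464 FPKM in controls. TF, not tested, was listed at 0 in all control libraries and at 0.00312, 0.0402 and 0.00148 FPKM in the bufotalin libraries. The Hep3B label could not be checked against ALB or AFP here.

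**Figure D4:**
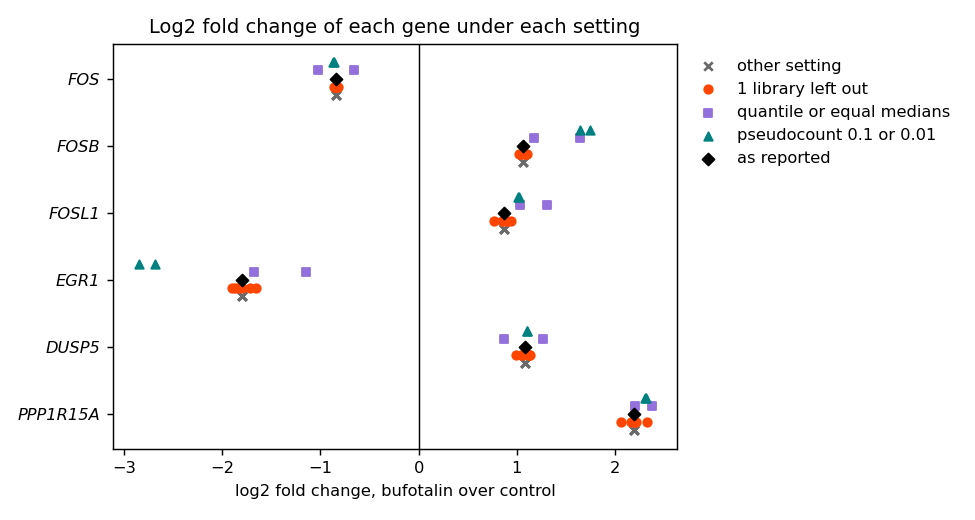
Log2 fold change of bufotalin over control (horizontal axis) of each described gene (rows) as reported, with other pseudocounts, with other scalings, with 1 library left out and under the remaining settings. Each symbol is a fit, and for each gene all of them lie on the same side of 0, with the widest range for EGR1, from -2.85 to -1.15.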

How the data were processed

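Total RNA was extracted with TRIzol and made into libraries with a NEBNext Ultra kit, per the labels' protocols. The submitters' processing notes name CASAVA 1.8, fastp, HISAT2 2.0.5, featureCounts 1.5.0-p3, DESeq2 1.20.0 and GRCh38, without saying which made what. Per-gene FPKM was deposited by the authors for a table of genes that they selected as different, by a rule not given in the sources used here, and FPKM per transcript for 536 lncRNA transcripts, of which 0 belong to the described genes. Whether counting used strand is not given, so reads of overlapping antisense genes may be included. The small RNA counts were not used here.

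The genes, lists and tests were chosen with earlier results of these data known. FPKM as deposited was tested with limma 3.58.1 (trended, robust eBayes, R 4.3.3) on log2(FPKM + 1), leaving out genes that averaged under 0.5 FPKM. The test set 3 bufotalin against 3 control libraries, two-sided, adjusted over all genes tested. The fit was also run on simulated data in which a small part of the genes changed. Most genes of this table were called, so that run cannot check the calls made here. Ratios were compared by an exact permutation test (scipy 1.17.1). Named genes were all listed members, up to 4 per list by smallest p, and the 3 nearest profiles among genes averaging 1 FPKM or more, of which 1 is not reported here. Promoters came from RefSeq (GRCh38.p14) by symbol, for FOS, FOSB, EGR1 and PPP1R15A. Python 3.11.15, numpy 2.4.6, pandas 2.3.3 and matplotlib 3.10.9 were also used. Alternatives were other pseudocounts, FPKM minimums and scalings, limma without trend, a replicate block and each library left out.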

Additional observations from a re-analysis of the deposited data

How the results depend on the processing

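All 83 refits of FOS, FOSB, FOSL1, EGR1, DUSP5 and PPP1R15A kept direction and call. With each library left out in turn, FOS had -0.86 to -0.82, FOSB 1.02 to 1.11, FOSL1 0.76 to 0.94, EGR1 -1.90 to -1.66, DUSP5 0.99 to 1.14 and PPP1R15A 2.06 to 2.33. FOSB could not be fitted at a minimum mean of 2 FPKM. Of 71 other genes refitted, 62 kept call and direction in every setting run. KRT8 lost its call in 6 settings, JUND, KSR1 and C13orf46 in quantile normalization only, and MT-ND6 (0.31, not called) had -0.17 there. EIF2S1 (0.16, not called) had -0.15 there, and -0.01 to 0.30 with a library left out. The number of genes called was 3981, and 3256 to 4456 in the other settings, and the median log2 fold change of the table went from -0.27 without bufotalin replicate 3 to 0.31 with equal medians. With the replicate number as a block 3957 genes were called. Same-numbered libraries did not deviate together (r = -0.02, 0.03 and -0.05 across genes), so the numbers give no pairing. The FOSB over FOS log2 difference was 2.56 to 2.75, that of EGR1 over FOS -2.26 to -1.61, that of PPP1R15A over FOS 3.06 to 3.34 and that of DUSP5 over EGR1 3.51 to 4.28 with a library left out, where no p below 0.2 is possible in the exact permutation test. FPKM gives no depth, so no counting error could be set beside the low values of EGR1 and FOSB. The lncRNA fits were not run, since no transcript of these genes was listed.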

Other observations

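Beside the integrated stress response, 11 of 29 symbols of the unfolded protein response list of endoplasmic reticulum genes were listed and tested. Of these 11 genes 6 were higher, 4 lower and 1 not called, with a median log2 fold change of 0.35 (0.14 for all genes tested). EDEM2, of endoplasmic reticulum degradation, fell to 3.62, 3.24 and 3.41 FPKM with bufotalin against 8.96, 8.82 and 9.10 FPKM in controls (-1.17 on the log2 scale, and -0.77 after quantile normalization), and the disulfide isomerase PDIA4 to 29.3, 27.6 and 30.4 FPKM with bufotalin against 57.6, 58.1 and 62.6 FPKM in controls. The co-chaperone genes DNAJB9 and DNAJC3 rose by 0.60 and 0.57 on the log2 scale. After quantile normalization 3 genes of this list were higher, 2 lower and 6 not called, so the split of this list depended on the scaling, while those of the immediate early and feedback phosphatase lists kept the counts given above after quantile normalization and after scaling to equal medians.

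AREG, which encodes the EGFR ligand amphiregulin and was fixed among the immediate early genes, was listed at 0 in all control libraries and at 0.224, 0.265 and 0.147 FPKM in the bufotalin libraries. It stayed under the FPKM minimum and was not tested.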
